A study of Homo sapiens with 3 samples.

Results

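Upper glycolysis is controlled at a pair of enzyme steps that each exist in several isoenzymes. The genes of these isoenzymes are described here in MCF10A cells. The 10 genes were chosen by name, as the hexokinases HK1, HK2 and HK3, the phosphofructokinases PFKL, PFKM and PFKP, and the regulators PFKFB1, PFKFB2, PFKFB3 and PFKFB4, and all 10 were found among the 62754 genes of the table by their Ensembl identifiers. MCF10A is an immortalized, non-tumorigenic human breast epithelial line. The cells carried the empty vector of a doxycycline-inducible expression system, with no gene of interest in it, had been selected with puromycin, and were harvested untreated and without doxycycline. RNA was sampled during exponential growth and sequenced after depletion of ribosomal RNA. All 3 samples, the replicates 1, 2 and 3, belong to 1 group and 1 batch, so that no condition is compared with another, and nothing in the labels says whether they came from separate cultures. The spread between them may therefore be technical.

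Hexokinases transfer phosphate to glucose as it enters the cell. HK1 is known as the isoenzyme of most tissues, HK2 as the one induced in muscle, by insulin and in many tumours, and HK3 from white blood cells. Phosphofructokinase, a tetramer of the liver (PFKL), muscle (PFKM) and platelet (PFKP) subunits, makes fructose 1,6-bisphosphate in what is regarded as the committing step of the pathway. The PFKFB enzymes make and remove fructose 2,6-bisphosphate, a strong activator of phosphofructokinase, and PFKFB3 is known for favouring its synthesis.

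Levels are given in TPM, a unit corrected for gene length and scaled to the same total in each replicate, so that genes can be set side by side. With the lengths of GENCODE release 44 the values went back to whole reads, 11166546 to 15446347 per replicate, of which the 10 genes held 11290 to 17161. The cells carried the markers of their label. All 4 basal epithelial markers (KRT5, KRT14, KRT17 and TP63) were above 1 TPM, and so were 3 of 5 luminal markers, with KRT19 and ESR1 close to 0. All 4 leukocyte markers (PTPRC, SPI1, ITGAM and CD68), all 4 of skeletal muscle (MYH1, MYH2, ACTA1 and CKM) and all 3 of liver (ALB, APOA1 and TTR) were below it, with summed levels per replicate of 0.0621 to 0.713, 0 to 0.166 and 0 to 0.206 TPM. CD68 may be undercounted, since 94.9% of its canonical transcript is shared on the same strand with another annotated gene. How reads in the shared part were counted is not given in the sources used here. Of 3 fibroblast markers, COL1A1 was above 1 TPM at 4.96 TPM.

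A total of 8 of the 10 genes reached at least 1 TPM in every replicate. The study used this cutoff to decide which enzymes entered its metabolic models. On the mean, the same held for 56.7% of the 20046 protein-coding genes and for 24.9% of all genes in the table. HK3 and PFKFB1 were the exceptions. The median of the 10 means was 50.3 TPM, where the median over protein-coding genes was 3.75 TPM. Over the genes at or above 1 TPM only, it was 66.3 TPM for the 8 members and 24.9 TPM for the 11360 protein-coding genes.

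HK2 and PFKFB3 are shown beside HK3 and PFKFB1, as an expressed and a nearly silent gene of the same family each, by the bases before their start sites. The sequences are from RefSeq on GRCh38.p14, before the RefSeq start that matches the canonical transcript, and read 5′ to 3′ on the strand of the gene, with CG dinucleotides in capitals. They end at the start site, except that PFKFB3 stops where the first annotated exon of another of its transcripts begins. HK2, PFKFB3 and PFKFB1 have 2 RefSeq start windows each, and the other window was not read. HK2 lies at chr2:74833877-74834126 (plus strand), HK3 at chr5:176899347-176899596 (minus strand), PFKFB3 at chr10:6202682-6202865 (plus strand) and PFKFB1 at chrX:54994189-54994438 (minus strand). The stretch before HK2 also overlaps an exon of the antisense lncRNA HK2-DT.
HK2: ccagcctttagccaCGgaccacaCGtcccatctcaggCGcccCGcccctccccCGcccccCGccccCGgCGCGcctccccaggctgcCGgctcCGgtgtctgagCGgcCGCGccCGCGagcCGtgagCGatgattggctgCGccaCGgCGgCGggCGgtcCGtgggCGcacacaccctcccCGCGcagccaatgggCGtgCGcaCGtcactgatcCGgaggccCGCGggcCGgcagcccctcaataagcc
HK3: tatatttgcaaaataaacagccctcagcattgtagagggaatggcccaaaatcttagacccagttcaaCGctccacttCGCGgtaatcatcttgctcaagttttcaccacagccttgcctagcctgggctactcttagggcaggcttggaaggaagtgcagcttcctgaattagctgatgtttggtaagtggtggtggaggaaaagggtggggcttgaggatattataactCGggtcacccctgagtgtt
PFKFB3: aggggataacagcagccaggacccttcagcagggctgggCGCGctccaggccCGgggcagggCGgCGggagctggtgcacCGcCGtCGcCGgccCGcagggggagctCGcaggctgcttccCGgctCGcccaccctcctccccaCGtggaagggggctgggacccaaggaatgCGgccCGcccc
PFKFB1: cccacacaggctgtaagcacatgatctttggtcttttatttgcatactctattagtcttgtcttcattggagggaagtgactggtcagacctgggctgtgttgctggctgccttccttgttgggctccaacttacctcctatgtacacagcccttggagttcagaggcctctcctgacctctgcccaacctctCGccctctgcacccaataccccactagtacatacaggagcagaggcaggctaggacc

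In the 250 bases before the start, HK2 held 34 CG dinucleotides and PFKFB3 26, of which 16 are in the 184 bases shown, and HK3 held 4 and PFKFB1 1. PFKL, with 30, and PFKFB4, with 18, were also CG-rich. The ratio of observed to expected CG was 0.96 for HK2, 0.81 for PFKL, 0.75 for PFKFB3 and 0.67 for PFKFB4, and 0.28 for HK3 and 0.059 for PFKFB1. Such a ratio of at least 0.6 was found before 87.5% of the 8962 protein-coding genes at or above 1 TPM and before 36.5% of the 5700 below it. The letters ACGTG are 1 form of the core of the site of hypoxia-inducible factors. Only this form was searched for, on either strand, so that the counts are not counts of all such sites. These letters were found before HK2, in 2 places, and PFKFB3, in 1 place where they overlap their own reverse complement as CACGTG. They were not found before HK3, PFKL, PFKFB1 and PFKFB4, and were present in 3079 of 14662 windows of this kind. HK1, PFKM and PFKP were left out, since the nearest RefSeq start lay 217, 3283 and 422 bases from that of the canonical transcript, and no window was found for PFKFB2. These sequence features were read after the levels were known and were not tested.

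**Figure D1:**
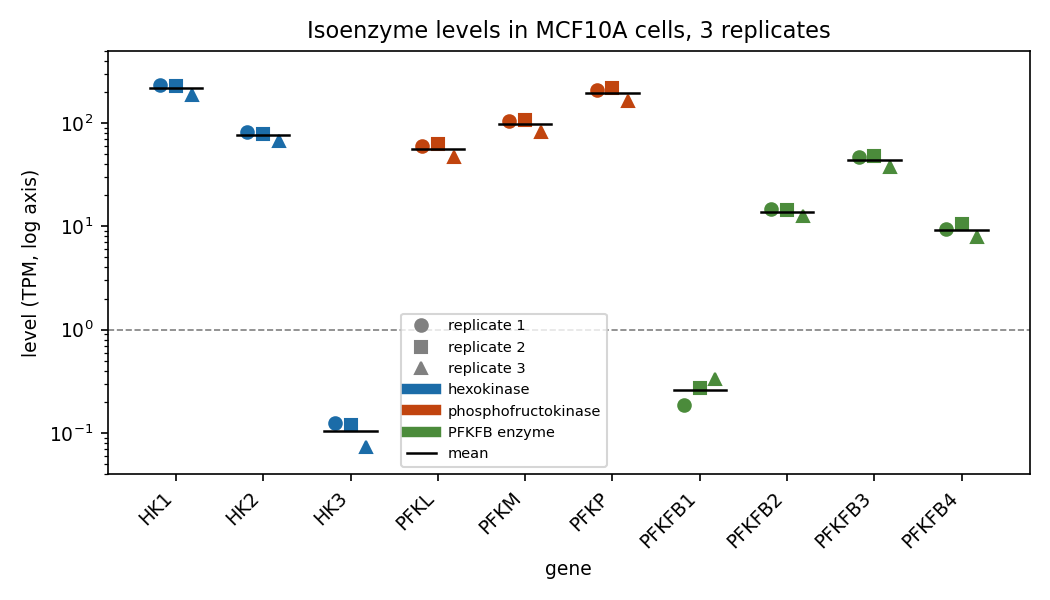
TPM on a log axis for each of the 10 genes in replicates 1 (circles), 2 (squares) and 3 (triangles), with the mean as a black line and 1 TPM as a dashed line. HK1 and PFKP stand highest near 200 TPM, and HK3 and PFKFB1 lie below 1 TPM in every replicate.

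The hexokinase message of these cells was mostly HK1. HK1 (ENSG00000156515, chr10:69269984-69401884, plus strand) was measured at 230.6, 229.98 and 187.7 TPM in the order of the replicates. These values rest on 4834, 4955 and 3348 reads. Its mean of 216.1 ± 24.6 TPM (SD, n = 3) was the highest of the 10 genes and ranked 632 among protein-coding genes. HK2 (ENSG00000159399, chr2:74834127-74893359, plus strand) was measured at 82.6, 79.0 and 67.2 TPM, with a mean of 76.3 ± 8.05 TPM (SD, n = 3). HK1 and HK2 did not overlap in any replicate, and the TPM ratio of HK1 to HK2 was 2.79, 2.91 and 2.79. Both were lowest in replicate 3, with little change in their proportion. HK1 made up 73.9% ± 0.454 (SD, n = 3) and HK2 26.1% ± 0.456 (SD, n = 3) of the summed TPM of the 3 hexokinases.

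HK3 (ENSG00000160883, chr5:176880869-176899346, minus strand) had 2, 2 and 1 reads, or 0.124, 0.121 and 0.0728 TPM. The exact 95% Poisson intervals of the counts reached at most 0.448 TPM in any replicate. They cover counting error only. The highest bound was below the 67.2 TPM of HK2 in its lowest replicate. The 4 leukocyte markers had between 0 and 7 reads each in the same libraries, where CD68 may be undercounted for its shared transcript. Only 0.973% of the canonical HK3 transcript overlaps another gene, on the opposite strand.

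Other glucose kinases stood on a list of 15 further genes of upper glycolysis, of which 8 had a mean at or above 1 TPM and 6 had 0 reads in every replicate. Those below 1 TPM are named here after their values were seen. HKDC1, a hexokinase domain gene that ends 2431 bases before the annotated start of HK1 on the same strand of chromosome 10, was measured at 0.940, 1.68 and 1.29 TPM from 18, 33 and 21 reads, on both sides of 1 TPM. ADPGK, which uses ADP in place of ATP, had a mean of 46.9 ± 3.58 TPM (SD, n = 3). The processed pseudogene HK2P1 on chromosome X took up 1, 0 and 0 reads.

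Hexokinases 1 and 2 are known to dock to the voltage-dependent anion channels of the outer mitochondrial membrane. All 3 channel genes were above 1 TPM, with means of 1015 ± 98.4 TPM for VDAC1, 339 ± 24.2 TPM for VDAC3 and 199.9 ± 17.7 TPM for VDAC2 (SD, n = 3 each).

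Among the phosphofructokinases the platelet subunit was highest and all 3 subunits were expressed. PFKP (ENSG00000067057, chr10:3066333-3137718, plus strand) was measured at 209 TPM, 217 TPM and 164 TPM in replicates 1, 2 and 3, with a mean of 197 ± 28.6 TPM (SD, n = 3). PFKM (ENSG00000152556, chr12:48105139-48146404, plus strand) was measured at 105 TPM, 106 TPM and 82.6 TPM, with a mean of 97.8 ± 13.2 TPM (SD, n = 3). PFKL (ENSG00000141959, chr21:44300051-44327376, plus strand) was measured at 60.0, 62.0 and 46.6 TPM, with a mean of 56.2 ± 8.37 TPM (SD, n = 3). The ranges of the 3 genes did not overlap, and their order was the same in each replicate. Of the canonical PFKP transcript, 4.57% is shared on the same strand with a lncRNA that had 0 TPM. How reads in the shared part were counted is not given in the sources used here.

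Shares within the class hardly moved between replicates. PFKP made up 55.9%, 56.4% and 55.97% of the summed TPM of the 3 phosphofructokinases, PFKM 28.1%, 27.5% and 28.1%, and PFKL 16.0%, 16.1% and 15.9%. The SD of these shares was between 0.109 and 0.361 percentage points, although the summed level itself differed by more, at 374, 385 and 294 TPM. The share of PFKL depends on the gene length, and was 24.6% with canonical lengths, above PFKM at 23.9%, and 22.5% with merged exons, below PFKM at 28.6%. PFKM, named for muscle, was expressed in libraries in which MYH1, MYH2 and CKM had 0 reads and ACTA1 had 2 reads at most. PFKM and SENP1 share 7.12% of the merged exons of PFKM on opposite strands, and whether counting used the strand is not given in the sources used here.

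**Figure D2:**
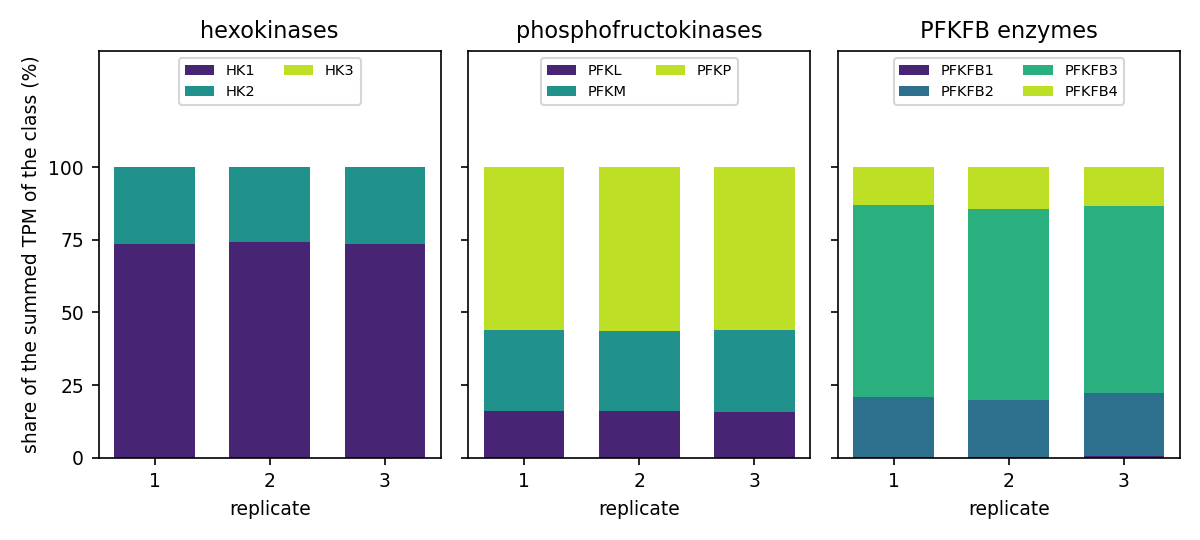
Share of each isoenzyme in the summed TPM of its class, in percent, for replicates 1, 2 and 3 as stacked bars. The proportions of the hexokinases, phosphofructokinases and PFKFB enzymes are nearly the same in all 3 replicates, and HK3 and PFKFB1 are too low to be seen at this scale or only as a thin line.

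The PFKFB enzymes were expressed at a lower level than the enzyme they regulate, with PFKFB3 in front. PFKFB3 (ENSG00000170525, chr10:6144934-6254644, plus strand) was measured at 47.2, 48.0 and 37.7 TPM, with a mean of 44.3 ± 5.75 TPM (SD, n = 3). PFKFB2 (ENSG00000123836, chr1:207034366-207081024, plus strand), known from heart and as a target of insulin signalling, was measured at 14.7, 14.4 and 12.7 TPM, with a mean of 13.9 ± 1.08 TPM (SD, n = 3). PFKFB4 (ENSG00000114268, chr3:48517684-48562015, minus strand), first described in testis, was measured at 9.42, 10.6 and 7.81 TPM from 173, 200 and 122 reads, with a mean of 9.27 ± 1.40 TPM (SD, n = 3). PFKFB3 was above PFKFB2 and PFKFB2 above PFKFB4 in 3 of 3 replicates, and the 3 ranges did not overlap.

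PFKFB3 made up 65.3% ± 0.825 of the summed TPM of the class, PFKFB2 20.6% ± 1.03 and PFKFB4 13.7% ± 0.700 (SD, n = 3 each). PFKFB1 (ENSG00000158571, chrX:54932961-54998534, minus strand), known from liver and muscle, had 2, 3 and 3 reads, or 0.187, 0.273 and 0.330 TPM. The exact 95% Poisson intervals reached 0.678, 0.800 and 0.967 TPM, below the lowest value of PFKFB4. ALB and TTR, defining genes of liver, had 0 reads in the same libraries. PFKFB4 and UCN2 share 4.88% of the merged exons of PFKFB4 on the same strand, but none of its canonical transcript.

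Of the kinases known to act on these enzymes, those named here were at or above 1 TPM. AKT1 averaged 79.9 ± 8.68 TPM and AKT2 71.0 ± 8.69 TPM (SD, n = 3 each). The catalytic subunits of the AMP-activated kinase differed, with 31.9 ± 3.01 TPM for PRKAA1 and 1.30 ± 0.0173 TPM for PRKAA2 (SD, n = 3 each). As deposited, these 4 kinases were below HK1 and PFKP in every replicate. For AKT1 the longest transcript, a retained-intron one of 8396 bases, is 2.84 times the 2957 bases of the canonical one. Its level and the gap to HK1 and PFKP therefore depend on the gene length.

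Summed over their genes, the hexokinase step reached 314, 311 and 256 TPM, phosphofructokinase 374, 385 and 294 TPM and the PFKFB enzymes 71.5, 73.3 and 58.5 TPM in replicates 1, 2 and 3. The hexokinase sum includes HKDC1. The step between hexokinase and phosphofructokinase is catalysed by the single isomerase GPI, which was measured at 298, 307 and 243 TPM. Of its canonical transcript, 13.1% is shared on the same strand with another annotated gene, which had 0 TPM. How reads in the shared part were counted is not given in the sources used here, so that GPI may be undercounted. The ratio of the hexokinase sum to GPI was 1.04 ± 0.0247, and that of the phosphofructokinase sum to GPI was 1.24 ± 0.0281 (SD, n = 3 each). As deposited, the phosphofructokinase sum was above the hexokinase sum in every replicate, by a ratio of 1.19 ± 0.0472 (SD, n = 3). With the merged length of all annotated exons the order turned, with 225 TPM for phosphofructokinase and 265.7 TPM for hexokinase and a ratio of 0.844 ± 0.0353 (SD, n = 3), below 1 in 3 of 3 replicates. With canonical lengths the ratio was 1.49 ± 0.0597 (SD, n = 3), so that the order of these sums depends on the gene length. The ratio of the hexokinase sum to GPI was 1.74 ± 0.0451 (SD, n = 3) with merged exons. The ratio of phosphofructokinase to the PFKFB sum was 5.17 ± 0.133 as deposited (SD, n = 3) and above 1 with all 3 lengths. TPI1, triose phosphate isomerase, was higher than these steps with 885 ± 63.8 TPM (SD, n = 3).

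**Figure D3:**
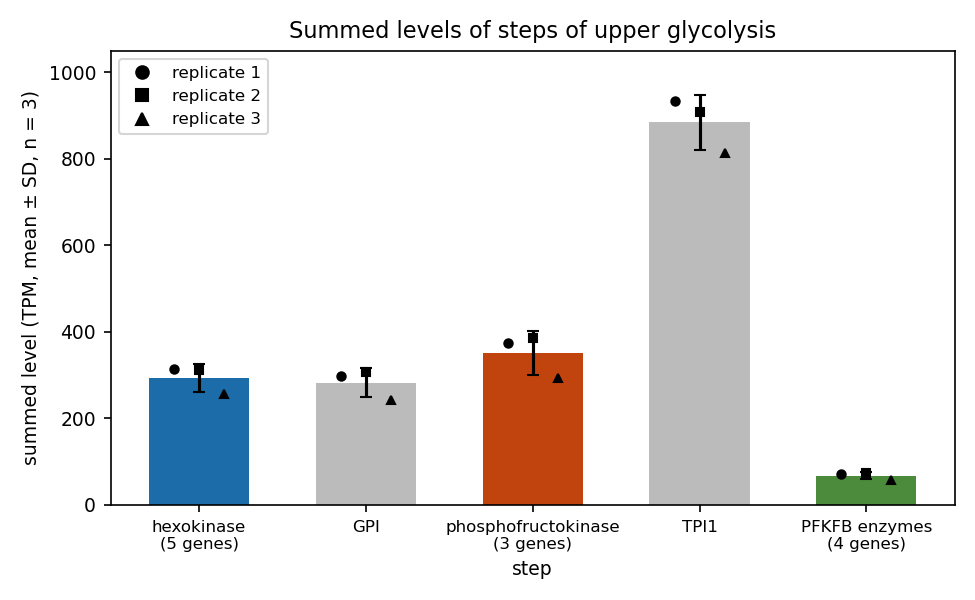
Summed TPM of each step as a bar (mean) with error bars (SD, n = 3) and 1 point per replicate; grey bars are single genes that are not members. In the deposited values, hexokinase, GPI and phosphofructokinase lie between 283 and 351 TPM on average, TPI1 at 885 TPM and the PFKFB enzymes at 67.8 TPM.

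No sum is given for aldolase, the step that follows. ALDOA was listed at 6.42 TPM, but 89.8% of its canonical transcript is shared on the same strand with another annotated gene, and how such reads were counted is not given in the sources used here. Genes of the opposite direction differed in level. FBP1, which reverses the phosphofructokinase step, had 0, 1 and 1 reads and FBP2 had none. TIGAR, a phosphatase of fructose 2,6-bisphosphate, had a mean of 6.89 ± 0.482 TPM (SD, n = 3), with 20.8% of its canonical transcript shared. Of the glucose-6-phosphatase genes, G6PC1 and G6PC2 had 0 reads and the widely expressed G6PC3 had 51.2 ± 9.02 TPM (SD, n = 3).

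By the mean, the order of the 10 genes was HK1, PFKP, PFKM, HK2, PFKL, PFKFB3, PFKFB2, PFKFB4, PFKFB1 and HK3. Each of the 9 pairs of neighbours was compared on log2(TPM + 0.1) within replicates and called apart when the direction was the same in 3 of 3 replicates and the mean difference was over 2 SD of the paired differences. By this rule 8 of 9 pairs were apart. The order came from the means of the same 3 replicates, which favours agreement in direction, so that the count only describes these libraries. The exact permutation test by sign flips gives a two-sided p of 0.25 for all 9 pairs (0.25 after Benjamini-Hochberg adjustment), which is the smallest that 3 replicates allow. HK1 and PFKP were the closest, with a difference of 0.14 ± 0.06 on the log2 scale (SD, n = 3), and without replicate 1 this pair was no longer apart. PFKFB1 and HK3, at 0.81 ± 0.48 (SD, n = 3) from 8 and 5 reads in all, were not told apart by the rule. PFKP and PFKM differed by 1.01 ± 0.03 and PFKFB3 and PFKFB2 by 1.66 ± 0.09 (SD, n = 3 each).

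This order depends on the length by which reads were divided. The deposited values became whole reads with the longest annotated transcript of each gene, which for PFKL is a retained-intron transcript of 6007 bases, 2.07 times the 2907 bases of the canonical one. A ratio of at least 2 was found for 6.69% of the 11360 protein-coding genes at or above 1 TPM. For AKT1, G6PC3 and ADPGK, whose levels are given as deposited only, this ratio was 2.84, 1.95 and 1.75. For PFKM the longest transcript, of 3579 bases, is annotated for nonsense-mediated decay, and the canonical one has 3090 bases. The longest transcript was the canonical one for HK2, HK3, PFKFB1, PFKFB2 and PFKFB4.

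With canonical lengths PFKL was at 94.9 ± 13.0 TPM and PFKM at 92.0 ± 11.3 TPM (SD, n = 3 each). The TPM ratio of PFKM to PFKL, 1.74 ± 0.0327 as deposited, became 0.971 ± 0.0182 (SD, n = 3 each), below 1 in 3 of 3 replicates. PFKL thereby moved from place 5 to place 3 of the 10 genes, above HK2 at 62.2 TPM, and PFKP, at 199 TPM, moved level with HK1 at 195 TPM, above it in 2 of 3 replicates. With the merged length of all annotated exons the ratio of PFKM to PFKL was 1.27 ± 0.0239 (SD, n = 3), and HK2, at 96.8 TPM, lay above PFKM, at 64.3 TPM. In reads, which are not divided by length, PFKM and PFKL were nearly equal at 1967, 2038 and 1316 against 1897, 2015 and 1254.

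**Figure D4:**
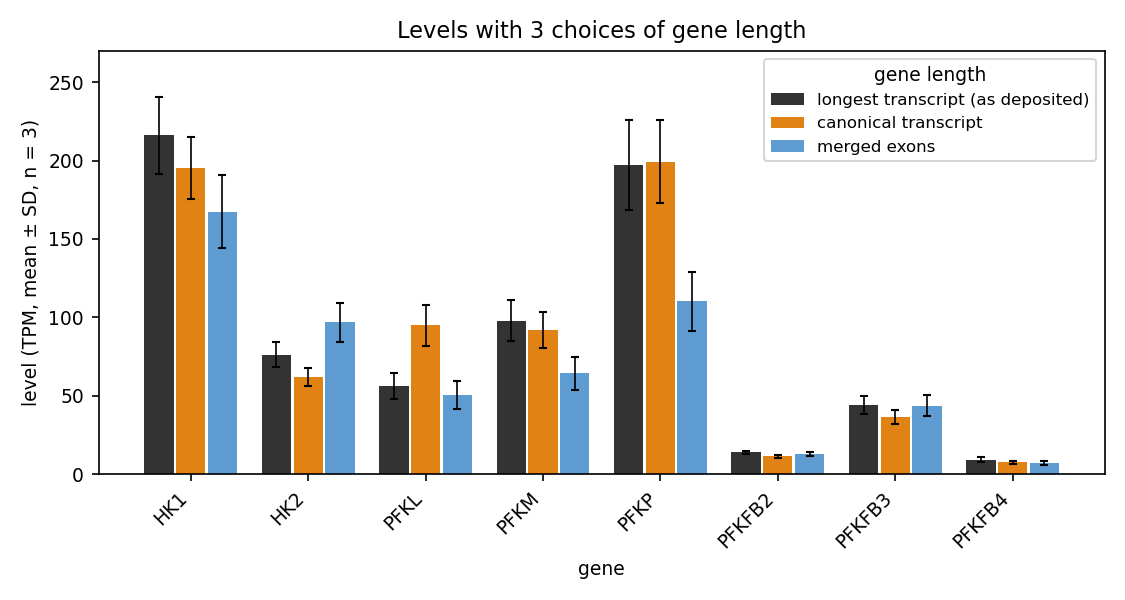
Mean TPM of the 8 genes at or above 1 TPM (bars, error bars SD, n = 3) with the longest transcript, the canonical transcript or the merged exons as gene length. PFKL is at 56.2 TPM with the longest and 94.9 TPM with the canonical transcript, and PFKP is at 110 TPM with merged exons, while HK1 stays above HK2, PFKP above PFKM and PFKL, and PFKFB3 above PFKFB2 and PFKFB4 with all 3 lengths.

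What did not depend on the length was which isoenzyme led its class. HK1 was above HK2 by a ratio of 2.83 ± 0.0676 as deposited, 3.14 ± 0.0749 with canonical and 1.73 ± 0.0413 with merged lengths (SD, n = 3 each). PFKP was above PFKL by 3.50 ± 0.0190, 2.10 ± 0.0114 and 2.18 ± 0.0118 (SD, n = 3 each). As deposited and with merged exons, however, PFKM and not PFKL was next below PFKP. PFKP was above PFKM by 2.01 ± 0.0363 as deposited (SD, n = 3), and lay at 110 TPM against 64.3 TPM with merged exons. PFKFB3 was above PFKFB2 by 3.18 ± 0.188, 3.20 ± 0.189 and 3.38 ± 0.1998 (SD, n = 3 each). Each of these ratios was above 1 in 3 of 3 replicates.

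All 8 expressed members were lowest in replicate 3, as were 82.8% of the 8809 genes at or above 10 TPM on average. On log2(TPM + 1), replicate 3 lay below the mean of replicates 1 and 2 by a median shift of -0.23 over these 8809 genes, and by -0.33 over the 8 members. Relative to that shift, 7 of 8 members were lower still, by -0.15 for PFKL, -0.14 for PFKP and -0.11 for PFKM at the most, and PFKFB2 was 0.05 above it. As the shift is a median, as many of the 8809 genes lie below it as above it. For HK1, HK2, PFKFB3 and PFKFB4, 26.2% to 43.1% of these genes lay below the member. The phosphofructokinases were the 3 lowest of the 8 members, and 15.9% to 22.0% of the 8809 genes lay below them. With 1 library, this difference was not tested. Between replicates 1 and 2 the 8 members differed by -0.06 for HK2 to 0.15 for PFKFB4, whose values rest on the fewest reads of the 8.

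**Figure D5:**
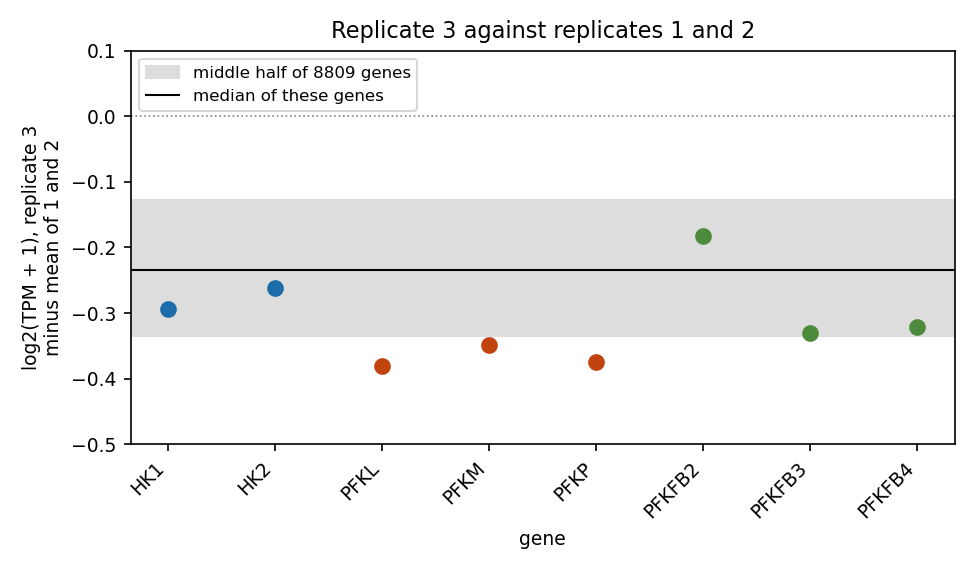
Difference of log2(TPM + 1) between replicate 3 and the mean of replicates 1 and 2 for the 8 expressed members, with the median (line) and the range between the quartiles (grey) of 8809 genes of at least 10 TPM. PFKL, PFKM and PFKP lie below the grey range, PFKFB2 above the median, and the other members within the range and below the median.

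The SD of log2(TPM + 1) between replicates was 0.11 for PFKFB2 to 0.22 for PFKL, with a median of 0.20 over the 8 members. The median was 0.19 over the 15640 genes at or above 1 TPM and 0.16 over the 8809 genes of at least 10 TPM. Set against genes within 1.5-fold of its own level, only 2 of the 8 members had a spread below the median. With each replicate centred on the median of the genes of at least 10 TPM, the median SD was 0.065 for the 8 members, 0.13 for the 15640 genes and 0.095 for the 8809 genes of at least 10 TPM. The counting error of a single replicate, taken at the mean read number, was 1.51% for HK1, 4.48% for PFKFB2 and 7.78% for PFKFB4. It was 61.2% for PFKFB1 and 77.5% for HK3, so that differences between replicates are not detectable for these genes at this depth.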

How the data were processed

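RNA-seq was measured in 3 samples of MCF10A cells, which form 1 group. The authors deposited 1 table of TPM for 62754 genes. By the methods, reads were mapped to hg38 and counted with Seq2science, and the processing notes of the submitters name STAR, fastp and MultiQC. The annotation release, gene length and strand setting are not given in the sources used here. Columns were assigned by library name, and 0 columns of values were left unused.

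Values stayed as deposited. Of the genes, 62700 were found in GENCODE release 44. TPM was multiplied by the length of the longest transcript, less 1 base per exon, and divided by the smallest value above 0 in a replicate. The result was whole within 0.001 for 100% of genes and was taken as reads. TPM was recomputed from these reads with the canonical transcript or the merged exons as length. Intervals are exact Poisson at 95%, and the limit for a gene at 0 is 3 reads. Pseudocounts were 0.1 for differences between genes and 1 for the spread. On simulated reads of 62700 genes, 100% were returned. The same length was used in both directions, so that this checks the arithmetic and not the choice of length.

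The genes named are the 10 members, the fixed lists of upper glycolysis, hexokinase docking, kinases and cell type markers (56 genes in 10 lists with the members), and genes or pseudogenes that overlap or copy a member. The members and lists were chosen with earlier results of these data known. No protein sequence was used. Alternatives covered the cutoff, scaling, gene length, pseudocount, summary and each replicate left out. Scripts ran in Python 3.11.15. Tables were handled in pandas 2.3.3 and numpy 2.4.6, tests came from scipy 1.17.1, and plots were drawn in matplotlib 3.10.9. Genes below 1 TPM on the lists were named after their values were seen. Some genes of these lists are not reported here.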

Additional observations from a re-analysis of the deposited data

How the results depend on the processing

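No paired analysis was possible between groups because the replicate numbers occur in a single group, and the within-replicate differences set genes, not groups, side by side. The count of 8 members at or above 1 TPM was 8 under every alternative tried, including a centring on abundant genes chosen after seeing the data. Of the neighbours, 8 pairs were apart with each replicate left out and 7 with canonical lengths. Without replicate 1, HK1 and PFKP were no longer apart (0.14) and PFKFB1 and HK3 were (1.04).

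Gene length turned the order of some genes and of the summed steps, whose ratios were tried with other lengths after seeing the data. With canonical lengths, HK1 against PFKP reversed to -0.026 and HK2 against PFKL to -0.60 on the log2 scale. The share of HK1 was then 75.8% and of PFKP 51.6%, and the sums were 258.5 TPM for hexokinase and 55.6 TPM for the PFKFB enzymes. All genes were scaled again to the same total, so that a level could move without a change in its own length. HK2 and PFKFB2, whose longest transcript is the canonical one, went from 76.3 to 62.2 TPM and from 13.9 to 11.4 TPM. With merged exons, PFKM against HK2 reversed to -0.59, the shares of HK1, PFKP and PFKFB3 were 63.3%, 48.96% and 68.2%, and the phosphofructokinase sum was 225 TPM against 265.7 TPM for hexokinase, a reversed log2 ratio of -0.24. In reads, these shares were 66.7%, 48.3% and 60.3%, and that of PFKL was 25.4%. With protein-coding genes scaled to the same total, every level rises by construction. By this scaling 6 of 10 levels moved by more than 1 SD, such as HK1 to 247.96 TPM. With canonical lengths and with merged exons, 5 levels each did. The median spread of the members was 0.065 after centring and lay between 0.027 (without replicate 3) and 0.25 (without replicate 1). The cause was not tested. Depth limits HK3 and PFKFB1, which rest on 5 and 8 reads in all.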
